A study of Mus musculus with 6 samples.

Results

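A group of 10 genes of the neural progenitor programme, of 54134 genes in the count table, was described across the tailbuds of mouse embryos: Sox1, Sox2, Sox3, Sox21, Hes3, Hes5, Nkx1-2, Gpm6a, Irx3 and Pax6. They were selected on results of the same libraries, because several of them differed between the genotypes, so their fold changes and calls are given as a description and nothing is read from how many of them were called. RNA was sequenced from 6 tailbuds, all tissue caudal to the last somite, with 1 library per embryo. They are labelled E10.5, but a heading in the study's source data names an earlier stage, and this was not resolved here. The question the comparison addresses is how prolonged Nr6a1, an orphan nuclear receptor, alters gene expression in the tissue that generates the tail. The labels give the strain of all 6 embryos as C57BL/6. The 4 wildtype libraries came from embryos without the transgene. The 2 Cdx2P:Nr6a1 libraries came from transient transgenic embryos made by pronuclear injection of the Nr6a1 coding sequence under the Cdx2 promoter, which is active in the posterior growth zone. No stable line was made, so each transgenic embryo carried its own integration of the construct.

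Sox1, Sox2 and Sox3 form the SoxB1 group of HMG box transcription factors, which hold neural progenitors in a dividing, undifferentiated state. Sox2 is also carried, together with the mesodermal factor T, by the neuromesodermal progenitors of the tailbud, which give rise to both spinal cord and paraxial mesoderm. Hes genes encode bHLH repressors, several of which are switched on by Notch signalling and act against neuronal differentiation.

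Total counts on genes lay between 44073460 and 67183802 per library. Of the 54134 genes, 12733 had a count above 10 and a CPM (counts scaled to a library total of 1000000) above 2 in at least 2 libraries and were tested with the quasi-likelihood test of edgeR. A gene is termed called when its Benjamini-Hochberg adjusted p was under 0.05. The test called 203 genes, 1.59% of those tested, of which 100 (0.785%) were higher and 103 (0.809%) lower in Cdx2P:Nr6a1, and the median log2 fold change was 0.00. Called or not, the highest wildtype value was exceeded by both transgenic libraries in 10.1% of the genes tested, and both were under the lowest wildtype value in 8.48%. Transcripts of 4 Y-linked genes reached 209.2 CPM in wildtype replicate 3 and 179.6 in Cdx2P:Nr6a1 replicate 2, against 1 to 4 counts in each of the other 4 libraries.

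The members are spread over several chromosomes of the mouse build GRCm38, with Hes3 and Hes5 on chromosome 4 and Sox1, Gpm6a and Irx3 on chromosome 8. The strand-specific libraries were counted without strand. Among genes fully covered by opposite-strand exons, all 481 had 0 counts in all 6 libraries, so reads falling on exons of more than 1 gene were left out. This removed 31.8% of the exon bases of Hes5, 18.8% of those of Sox21 and 16.6% of those of Nkx1-2, whose exons overlap the opposite-strand genes Gm20421, Gm4675 and Gm16764. Sox2, Sox3, Hes3, Gpm6a and Pax6 share 0 exon bases with another gene. Levels of Hes5, Sox21 and Nkx1-2 are thus understated in all 6 libraries, and comparisons of a gene between libraries rest on its remaining bases.

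The sequences at the transcription starts of the members were examined for the letters that the regulators of this system bind. RefSeq promoters (GRCm38.p6, 250 bases before to 50 after the start) were matched for 8 of the 10 members, and Hes3 and Sox3 had no entry. Motifs were searched on both strands. The promoters printed are those with the most RBPJ cores (Hes5), with the nuclear receptor half-site (Sox2) and of the called SoxB1 gene with an entry (Sox1): Sox1 (chr8:12395269-12395568, + strand), Sox2 (chr3:34649745-34650044, + strand) and Hes5 (chr4:154960673-154960972, + strand). In Sox1 and Hes5 the capitals mark the RBPJ core TGGGAA, read as TTCCCA where it lies on the opposite strand, which is the DNA element of the Notch effector RBPJ. In Sox2 the capitals mark AGGTCA, the half-site of nuclear receptors, read as TGACCT on the opposite strand.

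Sox1: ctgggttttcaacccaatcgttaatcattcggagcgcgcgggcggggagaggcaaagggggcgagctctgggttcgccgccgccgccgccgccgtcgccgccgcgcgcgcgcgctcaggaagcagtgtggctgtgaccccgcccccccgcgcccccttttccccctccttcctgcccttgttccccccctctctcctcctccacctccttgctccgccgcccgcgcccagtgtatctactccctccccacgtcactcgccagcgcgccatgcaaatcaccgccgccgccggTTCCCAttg

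Sox2: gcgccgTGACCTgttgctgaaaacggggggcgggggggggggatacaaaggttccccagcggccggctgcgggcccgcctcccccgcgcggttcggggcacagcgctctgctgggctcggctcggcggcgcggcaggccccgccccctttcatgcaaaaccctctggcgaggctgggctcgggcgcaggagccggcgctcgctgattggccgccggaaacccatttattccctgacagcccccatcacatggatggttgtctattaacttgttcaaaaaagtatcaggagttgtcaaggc

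Hes5: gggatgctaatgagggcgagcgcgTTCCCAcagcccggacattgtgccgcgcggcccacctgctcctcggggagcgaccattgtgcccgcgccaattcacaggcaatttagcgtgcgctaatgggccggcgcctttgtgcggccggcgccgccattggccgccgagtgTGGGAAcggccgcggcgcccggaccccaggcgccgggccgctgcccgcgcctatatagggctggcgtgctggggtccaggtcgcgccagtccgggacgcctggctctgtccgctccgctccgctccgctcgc

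The Hes5 promoter holds the RBPJ core at both -226 and -82 from the start, in opposite orientations, and that of Sox1 holds it once, at 41 after the start. Of 32817 promoters of the same length, 25.6% hold at least 1 RBPJ core and 3.79% hold 2 or more. The 8 matched members have 10 promoters, and 4 of these promoters hold it, namely those of Sox1, Hes5, Irx3 and a second start of Gpm6a. Sox2 was the 1 member with the nuclear receptor half-site, 244 bases before its start, against 16.3% of all promoters. These matches are descriptions of letters in a window and were not read as binding sites.

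Nr6a1, the gene carried by the transgene, was measured first. Its CPM was 3.91, 5.18, 5.53 and 6.89 in wildtype replicates 1 to 4, and 23.4 and 33.8 in Cdx2P:Nr6a1 replicates 1 and 2. Both transgenic libraries stood above all wildtype libraries, and replicate 2 carried 1.44 times the level of replicate 1 (95% exact counting interval 1.34 to 1.56). The log2 fold change was 2.41 with a standard error of 0.20, and the edgeR adjusted p was 0.00132.

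Among the SoxB1 genes, Sox1 is the one whose appearance marks cells committed to the neural plate. Its CPM was 0.895, 1.42, 1.16 and 1.25 in the wildtype libraries, from 44, 79, 65 and 56 counts, and 2.95 and 5.09 in Cdx2P:Nr6a1, from 130 and 342 counts. The groups did not overlap, and the log2 fold change was 1.77 with a standard error of 0.25 (edgeR adjusted p = 0.0116). Sox1 passed the filter on low counts only through the 2 Cdx2P:Nr6a1 libraries, since 0 of the wildtype libraries exceeded it, so it had to differ in order to be tested.

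Sox3, the X-linked member of the group, is expressed with Sox2 in early neural tissue. Its CPM was 4.23, 5.87, 5.74 and 5.45 in wildtype and 10.7 and 14.8 in Cdx2P:Nr6a1. The lowest transgenic library was above the highest wildtype library, and the log2 fold change was 1.26 with a standard error of 0.16 (edgeR adjusted p = 0.00714). Sox2, by contrast, had a CPM of 24.8, 29.3, 27.8 and 30.8 in wildtype and of 28.9 and 34.8 in Cdx2P:Nr6a1. The groups overlapped, and the log2 difference was 0.17 with a standard error of 0.10 (edgeR adjusted p = 0.653). In whole tailbuds, more cells expressing a gene and more RNA per cell cannot be told apart for any of these genes.

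Per length of exon the 3 SoxB1 genes were far from equal. Sox2 made up 81.8 to 84.3% of their summed CPM per kilobase of exon in wildtype, and 70.8 and 67.3% in Cdx2P:Nr6a1. The Sox3 share was 15.6% ± 1.19 (SD, n = 4) in wildtype against 26.2 and 28.5% in Cdx2P:Nr6a1. That of Sox1 was 1.47% ± 0.160 in wildtype against 3.08 and 4.19%. Sox2 thus remained the most abundant SoxB1 transcript in all 6 libraries.

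Sox21, a SoxB2 factor that counteracts SoxB1 proteins, was too low to be tested. Its counts were 53, 38, 63 and 90 in wildtype and 41 and 133 in Cdx2P:Nr6a1, which is a CPM of 0.930 and 1.98 in the latter, inside the wildtype range of 0.681 to 2.00. Over the libraries of a genotype, the summed counts gave a ratio of Cdx2P:Nr6a1 to wildtype CPM of 1.32 (exact counting interval 1.08 to 1.61), which covers counting error only.

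Hes3, a bHLH repressor of the early neural tube, had the largest increase in fold change of the 12733 genes tested. Decreases were not ranked by size. Its CPM was 0.793, 2.27, 1.88 and 2.09 in wildtype, from 39, 127, 105 and 94 counts, and 8.46 and 22.4 in Cdx2P:Nr6a1, from 373 and 1504 counts. The transgenic libraries stood at 4.81 and 12.7 times the wildtype mean, and the groups did not overlap. The log2 fold change was 3.13 with a standard error of 0.40 (edgeR adjusted p = 0.00737). The filter was passed by both Cdx2P:Nr6a1 libraries and by wildtype replicates 2 and 4.

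Hes5, a target of Notch in neural progenitors, had 83, 60, 77 and 41 counts in wildtype and 72 and 109 in Cdx2P:Nr6a1. At a CPM of 1.63 and 1.62 the transgenic libraries lay inside the wildtype range of 0.912 to 1.69. Hes5 was not tested, and the summed counts gave a ratio of 1.28 (exact counting interval 1.06 to 1.56).

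Nkx1-2, a homeobox gene of the caudal epiblast and the preneural tube, was the most abundant member. Its CPM was 79.6, 96.2, 85.9 and 77.6 in wildtype and 112.6 and 104.9 in Cdx2P:Nr6a1. The groups did not overlap, but the difference missed the threshold (log2 fold change 0.35, standard error 0.08, edgeR adjusted p = 0.0810). Gpm6a, a membrane glycoprotein of neural cells, had a CPM of 2.66, 2.74, 3.24 and 2.42 in wildtype and 4.45 and 4.20 in Cdx2P:Nr6a1. It likewise did not overlap and missed the threshold (log2 fold change 0.63, standard error 0.15, edgeR adjusted p = 0.0826). These 2 genes were the members just outside the threshold, and Sox1 was the one just inside it.

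Irx3, a homeobox gene of the neural tube, had 25, 49, 45 and 50 counts in wildtype and 45 and 92 in Cdx2P:Nr6a1, where its CPM was 1.02 and 1.37 against 0.508 to 1.11. Pax6, which patterns progenitors of the closed neural tube, had 3, 6, 7 and 1 counts in wildtype and 7 in each Cdx2P:Nr6a1 library. Neither gene was tested and both groups overlapped for each. The ratio of summed counts was 1.50 for Irx3 (exact counting interval 1.19 to 1.89) and 1.52 for Pax6 (0.696 to 3.29), and at this depth no difference in Pax6 was detectable.

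Of the 10 members 6 were tested, and 3 of them, Sox1, Sox3 and Hes3, were called higher and 0 lower, beside 0.785 and 0.809% of all genes tested. Both transgenic libraries were above all wildtype libraries for Sox1, Sox3, Hes3, Nkx1-2 and Gpm6a, beside 10.1% of all genes tested. The choice of members used this contrast, so these counts carry no weight of their own.

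**Figure D1:**
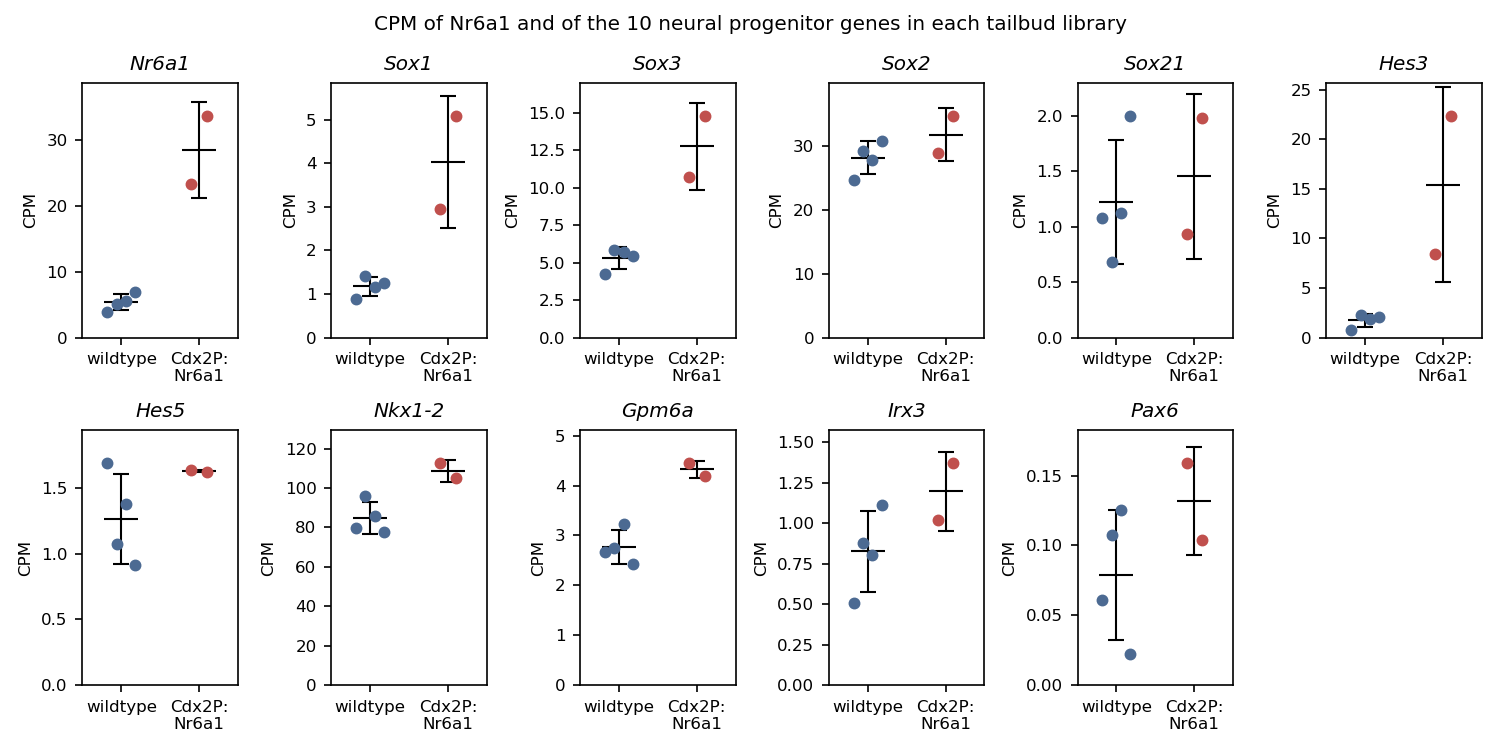
CPM (linear axes from 0) of Nr6a1 and the 10 members in each library. Blue points are the 4 wildtype and red points the 2 Cdx2P:Nr6a1 libraries, and black bars are mean ± SD. Sox1, Sox3, Hes3, Nkx1-2 and Gpm6a do not overlap between the groups, whereas Sox2, Sox21, Hes5, Irx3 and Pax6 do.

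The calls rested on Cdx2P:Nr6a1 replicate 2 to an unequal degree. Without it, 0 members were called by edgeR. Hes3 then had a log2 fold change of 2.25 (edgeR adjusted p = 0.0616, unadjusted 0.000345) and Sox3 of 0.996 (edgeR adjusted p = 0.0791, unadjusted 0.000616), and Sox1 did not pass the filter. Without Cdx2P:Nr6a1 replicate 1 Sox1 failed the filter as well, and Hes3 and Sox3 had log2 fold changes of 3.67 and 1.47. Replicate 2 also had the higher level of Nr6a1, and its Hes3 was 2.65 times (95% exact counting interval 2.36 to 2.97), its Sox1 1.73 times (1.41 to 2.13) and its Sox3 1.38 times (1.24 to 1.55) that of replicate 1. Sox2 was 1.21 times (1.13 to 1.29) higher there. Nkx1-2 was lower in replicate 2, at 0.93 times (0.90 to 0.97), and for Gpm6a the interval of 0.784 to 1.14 held 1. Of the 10 members 6 were higher in replicate 2, as were 45.8% of all genes tested. Y-linked expression also separated the 2 transgenic libraries. The embryos with these transcripts were wildtype replicate 3 and Cdx2P:Nr6a1 replicate 2. Between them the log2 difference from wildtype was 3.58 for Hes3, 2.13 for Sox1 and 1.37 for Sox3. Among the embryos without these transcripts, where Cdx2P:Nr6a1 replicate 1 was the only transgenic one, it was 2.30, 1.32 and 1.05. For these genes both transgenic libraries exceeded all wildtype libraries, so any such split gives the same direction. The part of Nr6a1 level or of sex in the difference between the 2 transgenic libraries was not tested.

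The levels of the members in wildtype tailbuds do not depend on the contrast. As CPM per kilobase of exon, Nkx1-2 was highest at 26.0 ± 2.56 (SD, n = 4), followed by Sox2 at 13.7 ± 1.25 and Sox3 at 2.58 ± 0.363. Hes5 (0.927 ± 0.252), Hes3 (0.897 ± 0.339) and Gpm6a (0.860 ± 0.106) came next, and each range overlapped that of its neighbour in the order. Sox21 (0.322 ± 0.147), Irx3 (0.299 ± 0.0901) and Sox1 (0.244 ± 0.0449) likewise could not be ordered beyond their spread. Pax6 stood at the end, at 0.00675 ± 0.00398. Dividing by unshared exon bases alone left the order as it was, with Hes5 at 1.36 and Nkx1-2 at 31.2. In Cdx2P:Nr6a1, Hes3 reached 7.87 ± 5.02 (n = 2), beside 6.17 ± 1.40 for Sox3.

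**Figure D2:**
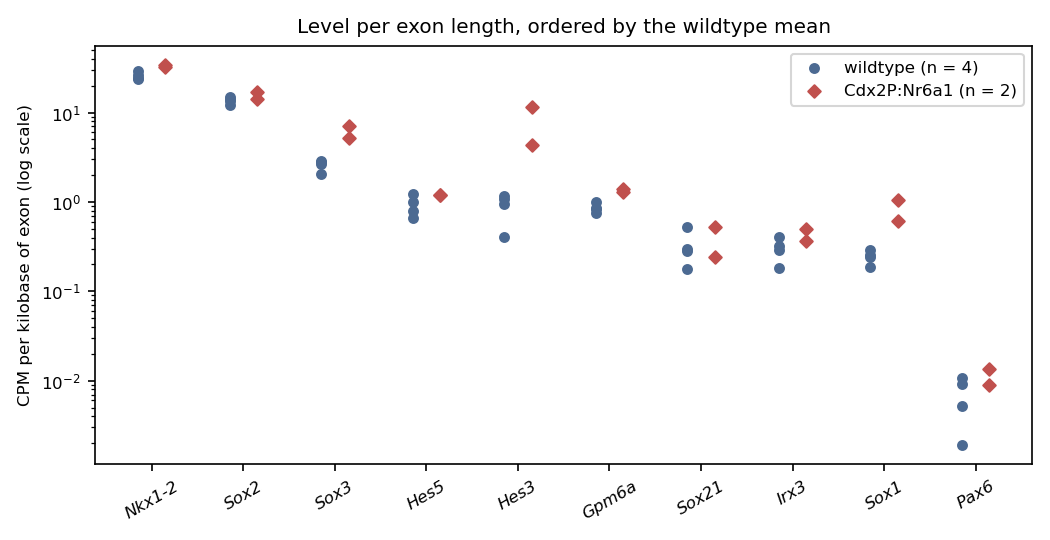
CPM per kilobase of exon (log axis) of each member, ordered by its wildtype mean. Blue circles are the 4 wildtype libraries and red diamonds the 2 Cdx2P:Nr6a1 libraries. Nkx1-2 and Sox2 lead, Hes5, Hes3 and Gpm6a overlap in wildtype, and Pax6 is lowest.

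The members also differed in how far the wildtype embryos lay apart. Sox2 and Nkx1-2 varied least, with coefficients of variation of 9.16 and 9.83%, and Hes3 (37.7%) and Sox21 (45.6%) were among the most variable, where counting alone would give 12.8% for Sox21. Wildtype replicate 1 had the lowest Sox1, Sox2, Sox3, Hes3 and Irx3 of the wildtype libraries, 5 of the 10 members, and 35.8% of all genes tested were lowest there.

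The same library was highest for Lfng, Hes7 and Nrarp, genes regulated by Notch, a comparison chosen after its values were seen, and 29.4% of all genes tested were highest there. Lfng, which modifies Notch and cycles in the presomitic mesoderm, had a CPM of 241.0, 44.7, 120.3 and 47.0 in wildtype replicates 1 to 4, a range of several fold between embryos of one genotype. Hes7, the cyclic repressor of the clock, had 121.2, 54.0, 69.6 and 65.8, and thus the same order, as had 2.67% of all genes tested. Hes1, also a Notch target, did not follow it, with 65.7, 52.7, 75.6 and 58.5 and its highest value in replicate 3. Hes5 did not have the Lfng order but that of the Notch target Nrarp (57.6, 27.6, 37.7 and 23.7), highest in replicate 1 and lowest in replicate 4. The Hes5 order rests on 83, 60, 77 and 41 counts, and the share of all genes tested with this order was not computed. Hes3 and Sox1 had exactly the reverse of the Lfng order, being lowest in replicate 1 and highest in replicate 2, as had 3.25% of all genes tested.

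In the transgenic libraries Lfng was 223.8 and 66.3 and Hes7 116.8 and 41.9, both higher in replicate 1, where Sox1, Sox2, Sox3 and Hes3 were lower. Thus in each genotype the library with the highest Lfng and Hes7 had the lowest level of these 4 members. Of all genes tested 16.7% were lowest in wildtype replicate 1 and also lower in Cdx2P:Nr6a1 replicate 1 than 2. Blood transcripts did not follow this order in both genotypes: Hbb-y, an embryonic globin, was highest in wildtype replicate 1 (9994 CPM) but higher in Cdx2P:Nr6a1 replicate 2 (6877) than 1 (4884). With 4 and 2 libraries no correlation was computed, and the Sox1 order rests on 44 to 79 counts per wildtype library.

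**Figure D3:**
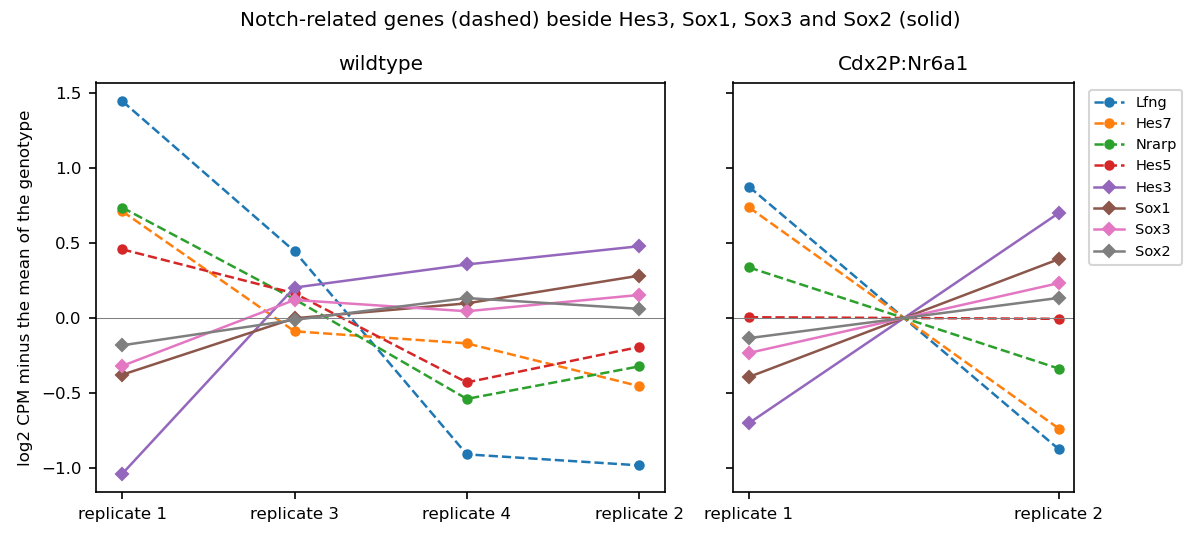
Log2 CPM of each gene minus its mean within the genotype, for the 4 wildtype libraries (left, ordered by falling Lfng) and the 2 Cdx2P:Nr6a1 libraries (right). Lfng, Hes7, Nrarp and Hes5 are dashed with circles and Hes3, Sox1, Sox3 and Sox2 are solid with diamonds. In both panels Hes3, Sox1, Sox3 and Sox2 are lowest in the library with the highest Lfng.

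Genes beside the members on the chromosome were compared to see whether regions moved with them. Of the 20 nearest tested genes on either side, 0 were called by edgeR. Gpr153 and Slitrk2, 2 of the 20, had an unadjusted p under 0.05, as had 1342 of all 12733 genes tested. Gpr153 lies 634 bases from Hes3 and had a log2 fold change of 0.22 (edgeR adjusted p = 0.454), and Icmt, 5.56 kb away on the other side, had 0.05. Slitrk2, the nearest tested gene above Sox3 at a distance of 5756 kb, had the largest value of the 20 at 0.77 (edgeR adjusted p = 0.126). The median over the neighbours was 0.05.

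The genes whose profile over the 6 libraries was most like that of a Sox gene were found by the root mean square difference of log2 CPM relative to each gene's wildtype mean. For Sox3 these were Cntfr, a cytokine receptor subunit (difference 0.07), Hoxa11 (0.15) and Lrp2 (0.16), an endocytic receptor. For Sox1 they were the connexin gene Gjb6 (0.18), Lrp2 (0.20) and Lrrc4 (0.22). Lrp2 was in both lists and rose from 25.7 CPM in wildtype to 50.8 and 85.8. For Sox2 they were Camk4 (0.03), Mmp15 (0.04) and Pcdh7 (0.04), all uncalled, and for Sox21, Arhgap30 (0.18), Rnf152 (0.21) and Igf1 (0.24). These profiles contain the genotype contrast, so likeness to Sox1 and Sox3 partly restates it.

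The Sox and Hes families were also read as wholes. Sox1, Sox3 and Hes3 are members, chosen on this contrast, so their calls carry no weight here. Of 19 Sox genes 14 were tested and 3 were called higher, beside 0.785% of all genes tested, while 0 were called lower. Outside the members the only called Sox gene was Sox13, a SoxD factor with a log2 fold change of 0.65 (edgeR adjusted p = 0.00286). The SoxC genes Sox4, Sox11 and Sox12, which act in newly formed neurons, had values of -0.01, 0.00 and -0.01. Sox8 (0.97, edgeR adjusted p = 0.167) and Sox5 (-0.34, edgeR adjusted p = 0.309) were not called, and Sox9 stood at -0.12. The median of the 14 was 0.05, and without Cdx2P:Nr6a1 replicate 2 only 1 Sox gene was called. Of 9 Hes and Hey genes 7 were tested and Hes3 alone was called, against 0 when Cdx2P:Nr6a1 replicate 2 was left out and 2 when wildtype replicate 3 was. Hes1, the broadly expressed Notch target, had 0.52 (edgeR adjusted p = 0.0820), and Hes6, Hes7, Hey1, Hey2 and Heyl lay between -0.11 and 0.30.

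Genes of the neural tube other than the members were not called higher alongside Sox1, Sox3 and Hes3. Of 28 such genes 16 were tested, and 0 were called higher by edgeR, while 2 of those with a positive value had an unadjusted p under 0.05 and DESeq2 called 5 in either direction. Their median was 0.00, with 8 above and 8 below 0, beside 0.00 for all genes tested. The progenitor filament gene Nes (-0.26, edgeR adjusted p = 0.188) and the radial glial gene Fabp7 (-0.54, edgeR adjusted p = 0.0914) were lower in both transgenic libraries but uncalled. The patterning genes Olig2, Gsx1, Dbx1, Dbx2 and Nkx2-2 had at most 2 counts in any library.

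Of 21 neuronal differentiation genes 7 were tested and 2 were called higher, beside 0.785% of all genes tested. This list was chosen with earlier results of these libraries known. The called genes were Gap43, a growth cone protein (log2 fold change 1.02, edgeR adjusted p = 0.00651), and Lhx5, a LIM homeobox gene (0.95, edgeR adjusted p = 0.0329). Tubb3 (0.84) and Elavl3 (-0.90) were not called, and the median was 0.43. The proneural gene Neurog2 had 3, 12, 9 and 10 counts in wildtype and 28 and 58 in Cdx2P:Nr6a1, and was too low to be tested. The count of called genes was 0 with Cdx2P:Nr6a1 replicate 2 left out and 1 with wildtype replicate 2, 3 or 4 left out.

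Of 20 further genes of neuromesodermal progenitors 19 were tested and 7 were called, beside 1.59% of all genes tested, in a list chosen with earlier results of these libraries known. Lin28a, an RNA-binding protein of early progenitors (0.82), Epha5 (0.96), Cyp26a1, which degrades retinoic acid (0.73), Gldc (0.40) and Cdx2 (0.35) rose, and the Wnt targets Cdx1 (-0.60) and Sp5 (-0.62) fell. T, the mesodermal partner of Sox2 in these cells, had -0.18 (edgeR adjusted p = 0.564), and the median was 0.20. The count of called genes was 2 when Cdx2P:Nr6a1 replicate 1 was left out and 3 when Cdx2P:Nr6a1 replicate 2 or wildtype replicate 4 was.

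Of 15 presomitic mesoderm genes 11 were tested and Cited1 fell (-0.48, edgeR adjusted p = 0.0208), with a median of -0.14, and was not called without either Cdx2P:Nr6a1 library. Tbx6, which represses Sox2 in mesoderm, had -0.26 (edgeR adjusted p = 0.107). Of 18 Notch pathway genes 17 were tested and 0 were called by edgeR, while 4 had an unadjusted p under 0.05, DESeq2 called 2, and 2 were called without wildtype replicate 3. Their median was -0.01. Of 17 retinoic acid genes 13 were tested and 5 were called, beside 1.59% of all genes tested, in a list chosen with earlier results known. The Cyp26 genes, which clear retinoic acid, differed in direction, as Cyp26a1 and Cyp26c1 (0.71) rose and Cyp26b1 (-1.31) fell. The synthetic enzyme Aldh1a2 (-1.25) and the reductase Dhrs3 (-0.86) also fell. The count of called genes in this list was 1 on removing Cdx2P:Nr6a1 replicate 1, and 3 on removing wildtype replicate 1 or 4.

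**Figure D4:**
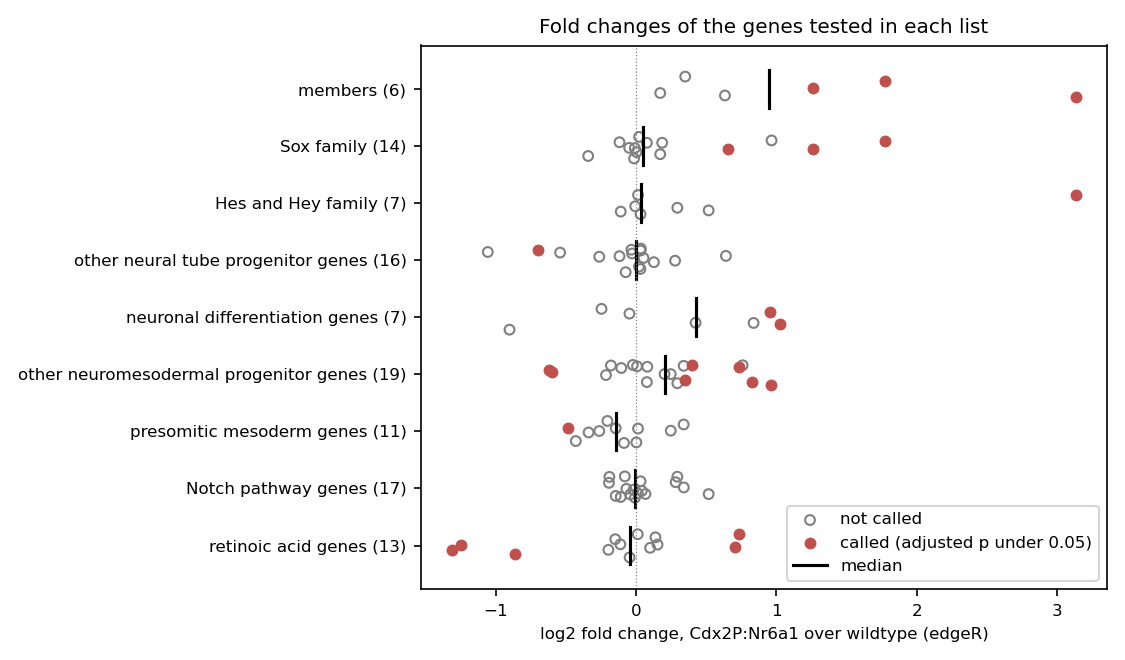
Log2 fold change (Cdx2P:Nr6a1 over wildtype, edgeR) of each gene tested in 9 lists, with the number tested in brackets. Filled red points were called, open grey points were not, and black lines are medians, while vertical scatter within a list has no meaning. Hes3, Sox1 and Sox3 are the filled points above 1.2, and the other neural tube progenitor genes centre on 0.00.

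Markers of other tissues that a tailbud dissection can hold were read beside the members. For surface ectoderm the summed CPM of 11 markers was 420.7 to 556.3 in wildtype and 638.5 and 558.5 in Cdx2P:Nr6a1, both above the wildtype range. Krt18 alone was called, higher, while 4 of the 10 tested (Krt8, Krt18, Epcam and Esrp1) had an unadjusted p under 0.05, all higher. Gut endoderm markers summed to 458.5 to 507.2 against 641.6 and 541.9, with Cdx2 called among them. Cdx2 is also in the list of neuromesodermal progenitor genes, and without it the sums were 172.2 to 211.7 against 231.5 and 195.3, so that replicate 2 lay inside the wildtype range. Neural crest markers summed to 127.3 to 142.8 against 154.4 and 149.2, with 0 called by edgeR, 1 at an unadjusted p under 0.05, and the defining genes Sox10 and Foxd3 at no more than 7 counts. Anterior neural markers summed to 15.6 to 23.3 against 24.4 and 25.7, carried by Otx1 (269 to 584 counts) and Emx2 (461 to 908). Otx2, En1 and Rax had at most 4 counts in any library. En2, a homeobox gene of the midbrain-hindbrain region, had 9, 13, 24 and 42 counts in wildtype and 22 and 152 in Cdx2P:Nr6a1, and so was high in replicate 2 alone. Macrophage markers summed to 14.3 to 33.3 against 17.9 and 54.5, the latter in the library on which the calls of the members rested. The lysozyme gene Lyz2 carried this, with 28.7 CPM in Cdx2P:Nr6a1 replicate 2 against 1.38 to 5.19 in wildtype and 4.99 in replicate 1 (log2 fold change 2.59, edgeR adjusted p = 0.0836), and without it the sum in replicate 2 was 25.82, inside the wildtype range of 12.97 to 30.89. Erythroid sums in Cdx2P:Nr6a1 lay inside the wildtype range. Notochord sums were 60.0 to 81.0 against 87.8 and 71.1, and endothelial sums 214.0 to 271.4 against 227.8 and 283.7. The part of tissue composition in the levels of Sox1, Sox3 and Hes3 was not tested.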

How the data were processed

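RNA of 6 tailbuds was sequenced by the authors from stranded polyA libraries as single-end reads, aligned with STAR to mm10, and deposited as raw counts per gene, without normalization. The counting program is not given in the sources used here. A second deposited table, holding the authors' fold changes and p-values for a subset of genes, was not used.

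Groups follow the genotype labels. CPM was computed from column totals, and levels between genes per kilobase of exon. Genes exceeding 10 counts and 2 CPM in 2 or more libraries were tested in R 4.3.3 with the quasi-likelihood test of edgeR 4.0.16 (TMM, no covariate), at a Benjamini-Hochberg adjusted p under 0.05. The steps were tested on simulated data. Alternatives were RLE or library size scaling, filterByExpr or no filter, the likelihood ratio test, DESeq2 1.42.0, limma voom 3.58.1, the replicate block, Y-linked expression as a covariate, and each library left out. An exact permutation test of 4 against 2 libraries cannot give a p under 0.0667. Intervals of ratios of counts are exact (Clopper-Pearson, 95%) and cover counting error only. The biological coefficient of variation was 9.40%.

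The members and lists were chosen with earlier results of these data known. Named were all members, Nr6a1, called genes of the lists, tested Sox, Hes and Hey genes, defining markers, nearest tested neighbours and the 3 profiles most like Sox1, Sox2, Sox3 and Sox21. Other genes were named after their values were seen, and some results of the lists are not reported here. Hes6 and Sox9 are in more than 1 list, as are Cdx2 and Cyp26a1. Promoter sequences came from RefSeq.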

Additional observations from a re-analysis of the deposited data

How the results depend on the processing

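Sox1, Sox3 and Hes3 kept their direction and their call under RLE and library size scaling, filterByExpr, no filter, the likelihood ratio test, DESeq2, limma voom, the replicate block, the Y-linked covariate and without any 1 wildtype library. Nkx1-2 and Gpm6a were also called without a filter, by the likelihood ratio test and by DESeq2, which made 5 called members each, and Nkx1-2 without wildtype replicate 2 (log2 fold change 0.41). Called higher and lower were 508 and 368 genes without a filter, 213 and 188 by the likelihood ratio test, 244 and 233 by DESeq2, and 67 and 69 with the Y-linked covariate. Without a filter, by the likelihood ratio test and by DESeq2, the called genes were 2, 2 and 2 for the Hes and Hey family, 5, 4 and 5 for other neural tube genes, 7, 4 and 5 for neuronal genes, 4, 2 and 2 for presomitic mesoderm and 3, 2 and 2 for Notch, where limma voom called 1. For neuromesodermal genes they were 13 without a filter, 11 by DESeq2 and 4 with the Y-linked covariate, with which 1 neuronal gene was called. The cause was not tested.

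With 1 library left out in turn, 27 to 82 genes were called higher and 22 to 93 lower, with 0 to 4 members, 1 to 3 Sox, 0 to 2 Hes and Hey, 0 to 2 other neural tube, 2 to 5 neuromesodermal, 0 to 2 neuronal, 0 to 1 presomitic mesoderm, 0 to 2 Notch and 1 to 4 retinoic acid genes. With 1 Cdx2P:Nr6a1 library left, its spread is assumed to be that of the wildtype libraries.

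Wildtype and Cdx2P:Nr6a1 replicates share only their numbers. The deviations of same-numbered libraries from their group means correlated at 0.27 and -0.23, and no label ties them. A replicate block on these numbers gave 236 genes called higher and 206 lower, 3 members, 4 Sox, 2 Hes and Hey, 3 other neural tube, 9 neuromesodermal, 5 neuronal, 3 presomitic mesoderm, 2 Notch and 5 retinoic acid genes, and the Hes3 log2 fold change was 3.34.

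Precision is limited by the 2 Cdx2P:Nr6a1 embryos and, for Sox21, Hes5, Irx3 and Pax6, by low counts.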
